A study of Homo sapiens with 12 samples.

Results

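CD40 and 7 other genes of B cell costimulation were followed across 12 RNA samples of the MEC1 cell line: CD40, CD80, CD86, CD27, CD70, TNFRSF13B, TNFRSF13C and TNFRSF17. They were chosen by name, and all rows of the deposited splicing table that carry one of these gene names were taken. The table held 154 splicing events of the 8 genes, of 721551 events of 30275 genes in all. Of the 154 events, 140 had at least 10 reads in every one of the 12 samples, against 340966 in the whole table. CD40 had 37 of these events, TNFRSF13B 30, CD27 23, CD86 21, CD80 12, TNFRSF17 8, CD70 6 and TNFRSF13C 3. The events were exons that are included or skipped, introns that are retained or spliced out, and alternative 3′ and 5′ splice sites.

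MEC1 is an established line grown from chronic lymphocytic leukaemia, a cancer of mature B cells. The groups were K700E clones given H3B-8800, K700E clones given DMSO, WT cultures given H3B-8800 and WT cultures given DMSO, with 3 samples in each. H3B-8800 is an oral small molecule that binds SF3B1, the branch-site subunit of the spliceosome, and K700E is the SF3B1 substitution most often seen in this leukaemia. Cells received 75 nM H3B-8800, or DMSO as the vehicle, for 6 h, and poly(A) RNA was sequenced in stranded libraries. All 3 K700E clones carry c.2098A>G together with c.2106G>A in SF3B1. The third WT culture carries c.2106G>A without c.2098A>G, whereas the labels give no change for the other 2 WT cultures. By their names, the same 6 cultures gave the H3B-8800 and the DMSO samples. The main p-values come from a fit that took all samples as independent, so each culture entered once per treatment. They measure the spread between cultures of 1 line within the groups, and not the spread of the change within a culture. The K700E genotype and the making of each clone cannot be told apart.

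CD40 is a receptor of the tumour necrosis factor receptor family on B cells. Its ligand on helper T cells drives B cell proliferation, antibody class switching and antigen presentation through TRAF adaptors and NF-kappaB, and in chronic lymphocytic leukaemia it is a survival signal of the lymph node. CD80 and CD86 are the ligands by which B cells engage CD28 or CTLA4 on T cells. CD27 is a receptor of memory B cells and CD70 is its ligand. TNFRSF13B (TACI), TNFRSF13C (BAFF receptor) and TNFRSF17 (BCMA) bind the survival cytokines BAFF and APRIL.

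The exons whose skipping carries the results below are shown to let the affected coding stretches be read directly. They are exons of the GENCODE transcripts on GRCh38, the build of the deposited table, written 5′ to 3′ on the gene's strand, and the capitals mark the last 3 exon bases next to the 5′ splice site. CD40 exon 5 (chr20:46123126-46123219, plus strand, 94 nt) and CD40 exon 6 (chr20:46126640-46126701, plus strand, 62 nt) encode the end of the extracellular part just before the membrane-spanning segment. CD27 exon 2 (chr12:6445424-6445555, plus strand, 132 nt) encodes part of the cysteine-rich extracellular region. TNFRSF13B exon 2 (chr17:16952446-16952583, minus strand, 138 nt) encodes the first of the paired cysteine-rich domains of TACI. CD80 exon 5 (chr3:119529842-119529937, minus strand, 96 nt) encodes the membrane-spanning segment of CD80. CD70 exon 2 (chr19:6590103-6590136, minus strand, 34 nt) lies between the exon for the membrane anchor and the exon for most of the ligand domain.
CD40 exon 5: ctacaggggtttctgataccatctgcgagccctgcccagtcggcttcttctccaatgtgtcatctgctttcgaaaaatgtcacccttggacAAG
CD40 exon 6: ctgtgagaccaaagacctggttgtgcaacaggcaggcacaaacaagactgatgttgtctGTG
CD27 exon 2: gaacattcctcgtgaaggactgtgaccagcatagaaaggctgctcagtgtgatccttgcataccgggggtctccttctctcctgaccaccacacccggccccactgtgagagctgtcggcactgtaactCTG
TNFRSF13B exon 2: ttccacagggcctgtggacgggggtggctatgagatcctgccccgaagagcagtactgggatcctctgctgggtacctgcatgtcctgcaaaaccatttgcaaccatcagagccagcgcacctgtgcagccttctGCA
CD80 exon 5: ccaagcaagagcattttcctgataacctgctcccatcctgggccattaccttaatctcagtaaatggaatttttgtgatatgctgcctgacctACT
CD70 exon 2: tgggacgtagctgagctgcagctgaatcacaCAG
Neither CD40 exon is a multiple of 3 in length, but the pair together is 156 nt, or 52 codons. CD27 exon 2, TNFRSF13B exon 2 and CD80 exon 5 are multiples of 3, and CD70 exon 2 is not.

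Each library held 45840233 to 56676172 exon-exon junction reads at annotated introns, called spliced reads here, and the median read number behind a tested event was 146 to 267. A junction that skips an exon counted only where the annotation lists it as an intron. More skipping can thus lower a gene's spliced reads by itself. The mean inclusion level over all tested exons was 67.2% to 68.1% in K700E cells given H3B-8800 and 80.1% to 80.8% in K700E cells given DMSO. It was 66.6% to 67.3% in WT cells given H3B-8800 and 80.5% to 80.6% in WT cells given DMSO. Markers of B cells summed to between 1870 and 3320 RPM (spliced reads per 1000000 in the library) over the 12 libraries, with all 10 genes tested. Markers of plasma cells, TNFRSF17 among them, summed to 672 to 1080 RPM, with all 6 genes tested. Markers of T and NK cells summed to 7.49 to 36.7 RPM, with CD3G at 0 in all libraries and 1 of 8 genes read enough for a test. Myeloid markers summed to 0.386 to 1.69 RPM, and fibroblast and epithelial markers to 11.3 to 20 RPM, with 4 of 6 genes tested. In bulk RNA, fewer cells that express a gene and less RNA per cell cannot be told apart.

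An event entered the test when its mean level over the 12 samples lay between 1% and 99% and, for introns, when its exon-intron junctions were balanced, and 63 events of the 8 genes did so. To be called, an event needed a limma adjusted p under 0.05 over all 120496 tested events and group means that lay 10 or more percentage points apart. H3B-8800 against DMSO called 22 of the 63 events in K700E cells (34.9%), with 30.7% of all tested events called there, and 27 of the 63 in WT cells (42.9%), with 31.4% called. In K700E cells the called events were 13 of 19 exons, all lower, where 38% of all tested exons were lower, and 9 of 22 introns, all more retained, where 31.6% of all tested introns were. In WT cells they were 16 of 19 exons, all lower, where 39.6% of all tested exons were lower, and 11 of 22 introns, all more retained, where 32% of all tested introns were. The median exon difference was -14.6 points in K700E cells, against -6.41 points over all tested exons, and -17.9 points in WT cells, against -6.79 points over all tested exons. An exon present in nearly every transcript of DMSO cells could enter the test only through skipping in H3B-8800, and 20 of the 39 member exons with enough reads did not enter, so these shares describe the tested exons and not all exons of the genes. None of the 22 tested alternative splice sites was called by limma in either genotype, with 4 at an unadjusted p under 0.05 in K700E cells and 5 in WT cells, where 9.33% and 8.31% of all tested alternative sites were called.

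**Figure D1:**
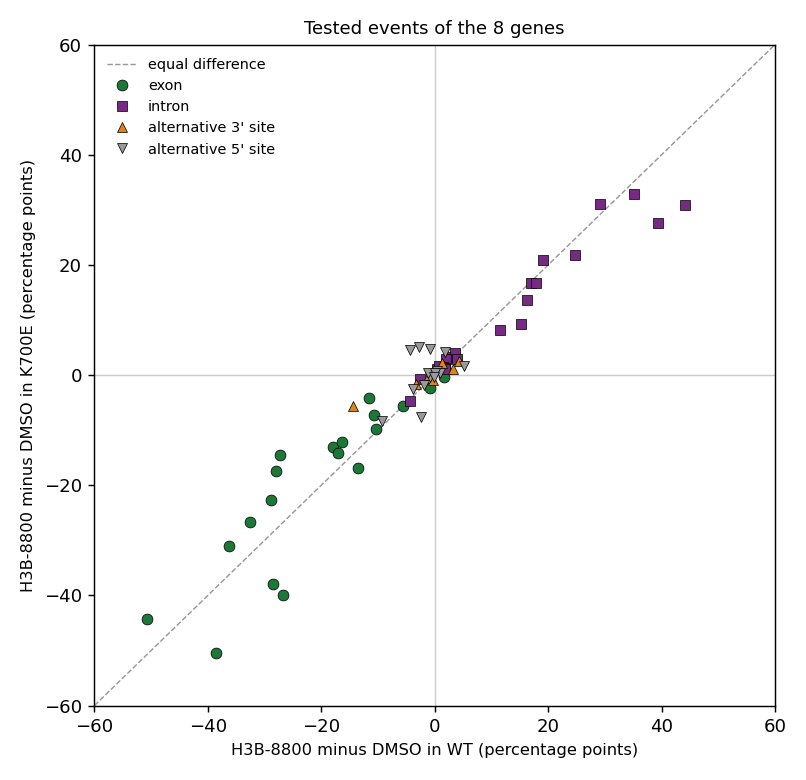
Difference in level between H3B-8800 and DMSO for the 63 tested events of the 8 genes, in percentage points, in K700E cells (vertical axis) and in WT cells (horizontal axis); the dashed line marks equal differences. Each point is 1 event, and the 13 exons called in K700E cells and the 16 called in WT cells lie below 0, while no alternative site was called, including a TNFRSF13B site at -14.4 points in WT cells (adjusted p = 0.17).

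CD40 lost most of its spliced reads in H3B-8800 and gained skipped exons and retained introns. CD40 had 19.9, 31.2 and 31.8 RPM of spliced reads in the 3 K700E samples given H3B-8800, against 77.2, 96.2 and 106 RPM in the K700E samples given DMSO. It had 13.9, 10.5 and 9.66 RPM in the WT samples given H3B-8800, against 71.4, 62.9 and 60.2 RPM in the WT samples given DMSO. In both genotypes every H3B-8800 sample lay below every DMSO sample. CD40 fell by 1.77 on the log2 scale in K700E cells (SE 0.20, limma adjusted p = 3.35e-05), a 3.41-fold lower level. It fell by 2.52 in WT cells (SE 0.20, adjusted p = 1.74e-06), a 5.75-fold lower level. Spliced reads of the median gene also fell, by 0.22 in K700E cells and by 0.28 in WT cells, and relative to that shift CD40 changed by -1.55 and -2.24. Of the 10182 genes tested for spliced reads, 52% were called in K700E cells and 59.3% in WT cells, so a change in spliced reads was common. The fall held at each of the 8 CD40 introns, from -2.39 to -1.26 in K700E cells and from -3.13 to -1.66 in WT cells. When unspliced reads at the same introns were added to spliced reads, the fall was smaller, by 1.33 in K700E cells and by 1.91 in WT cells (adjusted p = 8.31e-05 and 4.34e-06, within the ranges over 20 alternatives of 4.9e-09 to 0.00208 and 3.29e-10 to 2.09e-05).

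**Figure D2:**
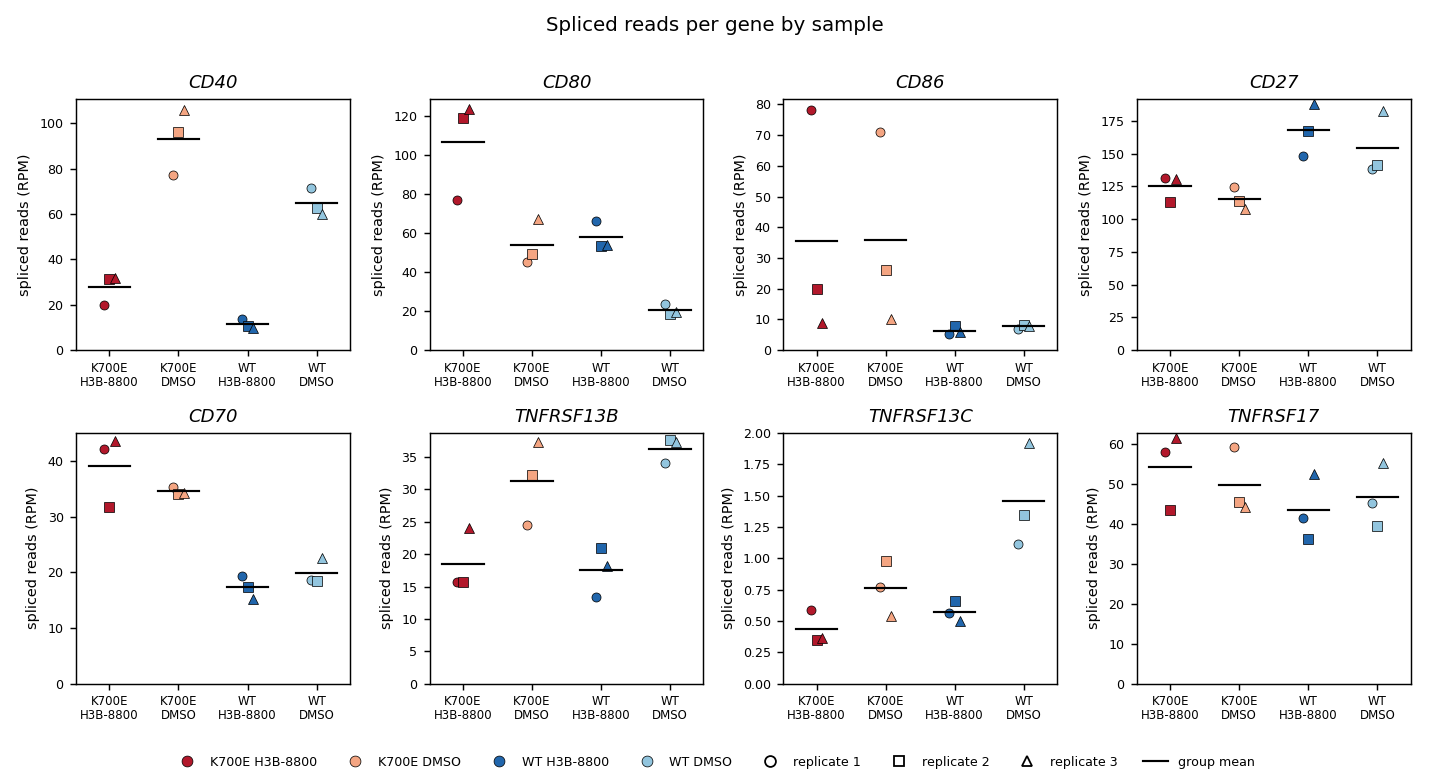
Spliced reads per gene in RPM, on a linear axis from 0, for the 8 genes, with 1 symbol per sample and a bar at the mean of 3 samples. CD40 is lower and CD80 higher in H3B-8800 than in DMSO in both genotypes, and the first K700E clone stands far above the others for CD86 at 78.0 RPM in H3B-8800 and 71.0 RPM in DMSO.

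CD40 exon 6, the second CD40 sequence above, was included in 33.6%, 53.3% and 44.0% of transcripts in K700E samples given H3B-8800, against 94.5%, 95.3% and 92.3% in K700E samples given DMSO. It was included in 57.3%, 57.0% and 53.7% in WT samples given H3B-8800, against 96.7%, 92.4% and 94.4% in WT samples given DMSO. No H3B-8800 sample came near the DMSO samples, and the differences were -50.4 points in K700E cells (adjusted p = 1.25e-06) and -38.5 points in WT cells (adjusted p = 3.27e-06). The table gives CD40 exon 5 with a start a few bases inside the annotated exon, at chr20:46123132-46123219. Use of that inner start as an alternative 3′ site differed with H3B-8800 by 0.04 points in K700E cells and 1.04 points in WT cells, neither called. The level is therefore given for exon 5, without telling the starts apart. Exon 5 was included in 38.5%, 56.6% and 46.0% in K700E samples given H3B-8800, against 86.1%, 90.3% and 84.7% in K700E samples given DMSO. In WT samples given H3B-8800 the level was 62.4%, 60.3% and 56.8%, against 86.5%, 84.8% and 88.3% in WT samples given DMSO. Exon 5 thus moved with exon 6, by -40 points in K700E cells (adjusted p = 6.67e-06) and by -26.7 points in WT cells (adjusted p = 8.91e-05). The levels are measured exon by exon and do not tell whether the same transcripts lack both.

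CD40 exon 2 (chr20:46121820-46121898, 79 nt), which follows the exon with the start codon, fell to a mean of 86.8% in K700E cells given H3B-8800, against 99.95% in DMSO, and to 81.8% in WT cells given H3B-8800, against 99.7% in DMSO. No H3B-8800 sample was above 91.7%, and every DMSO sample was at least at 99.4%. These are differences of -13.1 points (adjusted p = 5.8e-07) and -17.9 points (adjusted p = 5.45e-06). Exon 3, exon 4 and exon 7 had group means of at least 99.1% in all 4 groups and were not tested for that reason. Exon 3, next to exon 2, was nevertheless lower in every H3B-8800 sample than in any DMSO sample of its genotype, by -0.37 points in K700E cells and -0.86 points in WT cells. Exon 7 encodes the membrane-spanning segment, and exon 8 differed by -2.34 points in K700E cells (adjusted p = 0.0346) and by -0.80 points in WT cells (adjusted p = 0.519), under the size threshold of a call. The read numbers behind the 6 CD40 events described here ran from 73 to 1788, and their 95% Wilson intervals reached at most 11.2 points to either side, which covers counting error alone.

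Introns of CD40 were retained more in H3B-8800. Intron 4, which lies just before exon 5 (chr20:46122757-46123125), was retained in 39.6%, 33.6% and 40.2% of transcripts in K700E samples given H3B-8800, against 7.29%, 5.28% and 7.94% in K700E samples given DMSO. It was retained in 33.6%, 58.8% and 61.0% in WT samples given H3B-8800, against 3.19%, 7.49% and 10.2% in WT samples given DMSO. The groups did not overlap, and the first WT culture given H3B-8800 was lower than the other 2. Retention rose by 30.9 points in K700E cells (adjusted p = 1.72e-04) and by 44.2 points in WT cells (adjusted p = 2.1e-05). Intron 3 rose by 27.6 points (adjusted p = 7.79e-07) and 39.4 points (adjusted p = 1.96e-07) in K700E and WT cells, and intron 8 rose by 31.1 points (adjusted p = 2e-05) and 29.1 points (adjusted p = 1.8e-05). Introns 1 and 2 were called too, at 16.7 and 21.8 points in K700E cells and 16.9 and 24.7 points in WT cells. Intron 7, the short intron after the membrane-spanning exon, was not called, with a retained level of 1.76% in K700E cells given H3B-8800 and 2.32% in WT cells given H3B-8800. Introns 5 and 6, on both sides of exon 6, failed the junction balance filter. Their retention without that filter was 32 and 26.9 points higher in K700E cells and 45.2 and 40.8 points higher in WT cells. A retained share is unspliced over all reads at the intron and so depends on both kinds of read. Unspliced reads in RPM changed by 0.23 to 2.32 on the log2 scale over the 8 introns in K700E cells and by -0.07 to 2.15 in WT cells.

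**Figure D3:**
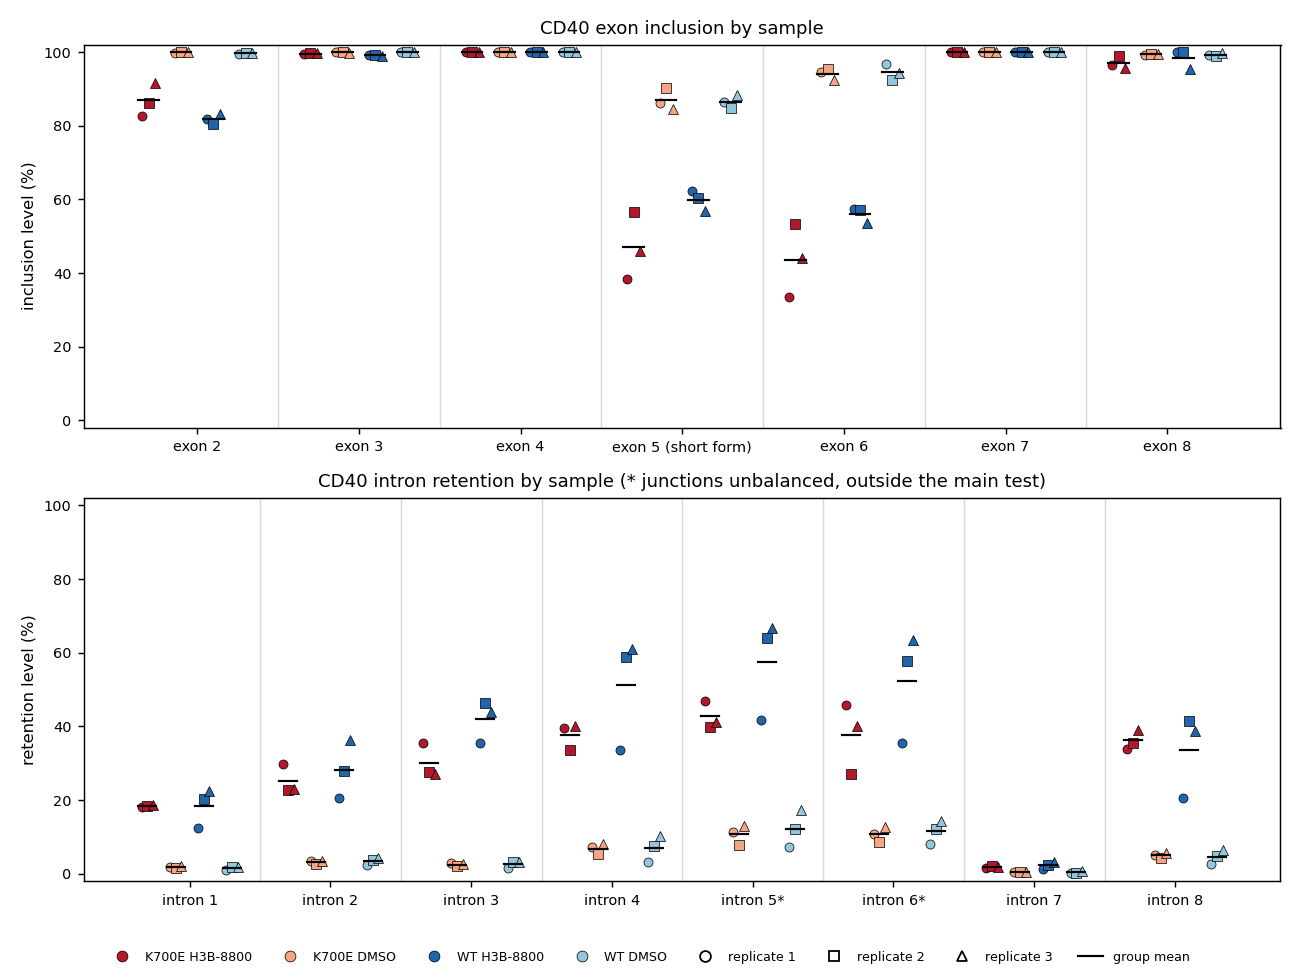
Inclusion of CD40 exons 2 to 8 (upper panel) and retention of CD40 introns 1 to 8 (lower panel) in percent, with 1 symbol per sample and a bar at the mean of 3 samples; asterisks mark introns outside the main test. Exons 2, 5 and 6 are lower in H3B-8800, exons 3, 4 and 7 stay near 100%, and intron 7 is the only intron that stays near 0%.

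CD27 had 2 exons that were skipped more in H3B-8800, while the change in its spliced reads did not pass the test. CD27 had 131, 113 and 131 RPM in K700E samples given H3B-8800, against 124, 114 and 108 RPM in K700E samples given DMSO. It had 148, 168 and 188 RPM in WT samples given H3B-8800, against 139, 142 and 183 RPM in WT samples given DMSO. The groups overlapped, and the log2 changes of 0.12 in K700E cells (SE 0.12, adjusted p = 0.462) and 0.13 in WT cells (SE 0.12, adjusted p = 0.403) did not pass the test. When libraries were scaled by the median of ratios, which sets the median gene near 0, the changes were 0.33 (adjusted p = 0.0184) and 0.39 (adjusted p = 0.00637), so this call depends on the scaling.

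CD27 exon 2 was included in 63.8%, 75.7% and 65.9% of transcripts in K700E samples given H3B-8800, against 99.6%, 99.7% and 99.5% in K700E samples given DMSO. It was included in 63.2%, 65.2% and 62.2% in WT samples given H3B-8800, against 99.7%, 99.9% and 99.6% in WT samples given DMSO. About 1 in 3 transcripts lacked the exon in the treated cells, with differences of -31.1 points in K700E cells (adjusted p = 3.32e-08) and -36.2 points in WT cells (adjusted p = 1.21e-08). CD27 exon 3 (chr12:6450173-6450352, 180 nt), the next part of the extracellular region, differed by -14.2 points (adjusted p = 6.51e-09) and -17 points (adjusted p = 5.34e-09). Both exons are multiples of 3, 312 nt or 104 codons together. CD27 exon 4 had group means of at least 99.7% and exon 5, which encodes the membrane-spanning segment, was at 100% in all 4 groups. The intron after it, intron 5 (chr12:6451015-6451267), was retained in 44.1%, 41.3% and 37.6% in K700E samples given H3B-8800, against 7.30%, 10.0% and 7.32% in K700E samples given DMSO. It was retained in 39.1%, 40.5% and 43.8% in WT samples given H3B-8800, against 5.45%, 4.90% and 7.28% in WT samples given DMSO. Retention rose by 32.8 points in K700E cells (adjusted p = 4.74e-07) and by 35.2 points in WT cells (adjusted p = 1.21e-07), whereas CD27 introns 1, 2 and 3 differed by 1.93 to 4 points and were not called. CD27 exons 2 and 3 and intron 5 rested on at least 1298 reads, with Wilson intervals of at most 2.26 points to either side.

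CD70, the ligand of CD27, had more spliced reads in K700E cells than in WT cells in both treatments. CD70 had 42.2, 31.7 and 43.7 RPM in K700E samples given H3B-8800 and 35.3, 34.2 and 34.3 RPM in K700E samples given DMSO. It had 19.3, 17.4 and 15.2 RPM in WT samples given H3B-8800 and 18.7, 18.4 and 22.5 RPM in WT samples given DMSO. Every K700E sample lay above every WT sample. The log2 changes with H3B-8800 were 0.17 in K700E cells (adjusted p = 0.347) and -0.20 in WT cells (adjusted p = 0.239), and with median-of-ratios scaling the K700E change was 0.38 (adjusted p = 0.0318) and the WT change 0.07.

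CD70 exon 2 was included in 79.2%, 82.6% and 83.3% of transcripts in K700E samples given H3B-8800, against 98.4%, 98.6% and 98.4% in K700E samples given DMSO. In WT samples given H3B-8800 the level was 85.1%, 85.0% and 83.5%, against 97.8%, 98.1% and 98.1% in WT samples given DMSO. The groups were well apart, with differences of -16.8 points in K700E cells (adjusted p = 3.15e-08) and -13.5 points in WT cells (adjusted p = 9.56e-08). CD70 intron 2 rose by 11.5 points in WT cells (adjusted p = 0.00175) and differed by 8.12 points in K700E cells, under the size threshold. The WT call rested on the third WT culture given H3B-8800, at 23.7%, beside 10.9% and 19.0% in the others, and without that sample the difference was 8.60 points.

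**Figure D4:**
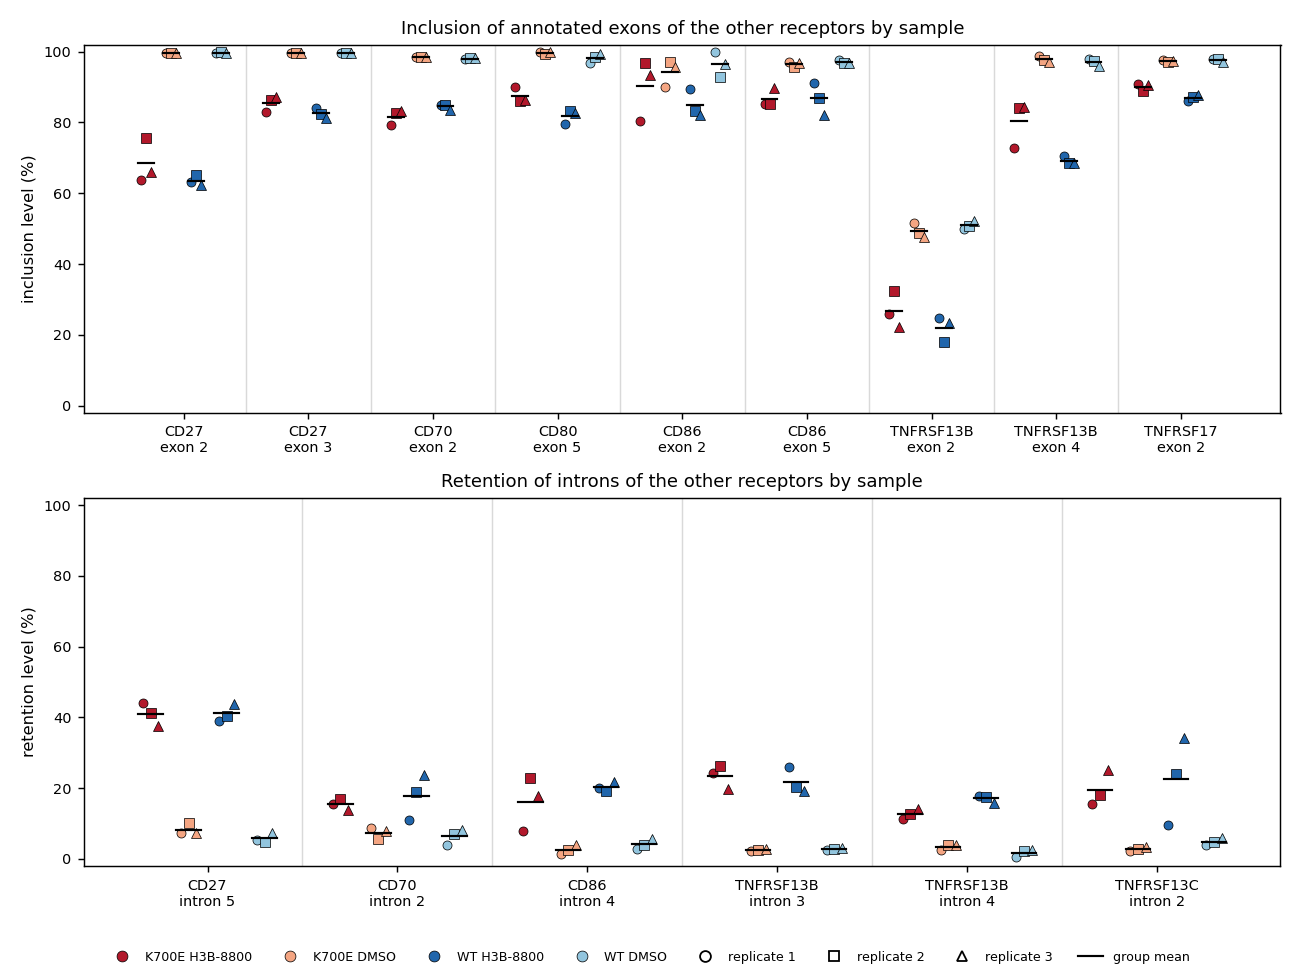
Inclusion of annotated exons (upper panel) and retention of introns (lower panel) of the other receptors and ligands in percent, with 1 symbol per sample and a bar at the mean of 3 samples. Of the exons and introns drawn, CD27 exon 2 and TNFRSF13B exon 2 have the lowest levels in H3B-8800 and CD27 intron 5 the highest retention; introns with unbalanced junctions, such as CD80 intron 6, are not drawn.

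CD80 went the other way from CD40: its spliced reads rose in H3B-8800, but not at its last intron. CD80 had 77.1, 119 and 123 RPM in K700E samples given H3B-8800, against 45.3, 49.2 and 67.2 RPM in K700E samples given DMSO. It had 66.3, 53.2 and 53.9 RPM in WT samples given H3B-8800, against 23.5, 18.8 and 19.7 RPM in WT samples given DMSO. No treated sample overlapped its DMSO group. CD80 rose by 0.97 on the log2 scale in K700E cells (SE 0.20, adjusted p = 0.0018) and by 1.48 in WT cells (SE 0.20, adjusted p = 7.8e-05), or by 1.19 and 1.76 relative to the median gene. It was the only one of the 7 tested genes called higher with H3B-8800, where 16.2% of all genes were called higher in K700E cells and 18.5% in WT cells. CD40 and TNFRSF13B were called lower, where 35.8% of all genes were called lower in K700E cells and 40.8% in WT cells.

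At CD80 introns 1 to 5 the spliced reads were higher in H3B-8800, by 0.97 to 1.25 on the log2 scale in K700E cells and by 1.36 to 1.79 in WT cells. In retained level, neither of the 2 tested CD80 introns was called. Of these, 1 was less retained in every H3B-8800 sample than in any DMSO sample of its genotype. The other was more retained in every treated K700E sample and overlapped in WT cells. Intron 6 (chr3:119525750-119527732), the last intron, lies after the coding part. Its spliced reads were 1.09, 1.21 and 0.955 RPM in K700E samples given H3B-8800, against 5.22, 5.25 and 7.06 RPM in K700E samples given DMSO. They were 0.361, 0.321 and 0.376 RPM in WT samples given H3B-8800, against 2.01, 1.88 and 2.24 RPM in WT samples given DMSO. Within 1 gene, the last junction was thus lower by 2.41 in K700E cells and by 2.50 in WT cells on the log2 scale, while the 5 junctions before it were higher. Reads across the first-listed exon-intron junction of intron 6 were 8.94, 12.2 and 16.9 RPM in K700E samples given H3B-8800, against 1.91, 2.02 and 3.64 RPM in K700E samples given DMSO. They were 8.07, 7.24 and 5.40 RPM in WT samples given H3B-8800, against 1.39, 0.81 and 0.962 RPM in WT samples given DMSO. Reads across the second-listed junction were at most 0.0406 RPM in any sample. The unspliced reads thus came from 1 edge of the intron, which is what the balance filter removes, and the table does not say which edge is listed first. Without that filter the retained level of intron 6 was 67.1 points higher in K700E cells (adjusted p = 3.47e-07) and 70 points higher in WT cells (adjusted p = 1.48e-07), and whether transcripts end inside the intron was not tested.

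**Figure D5:**
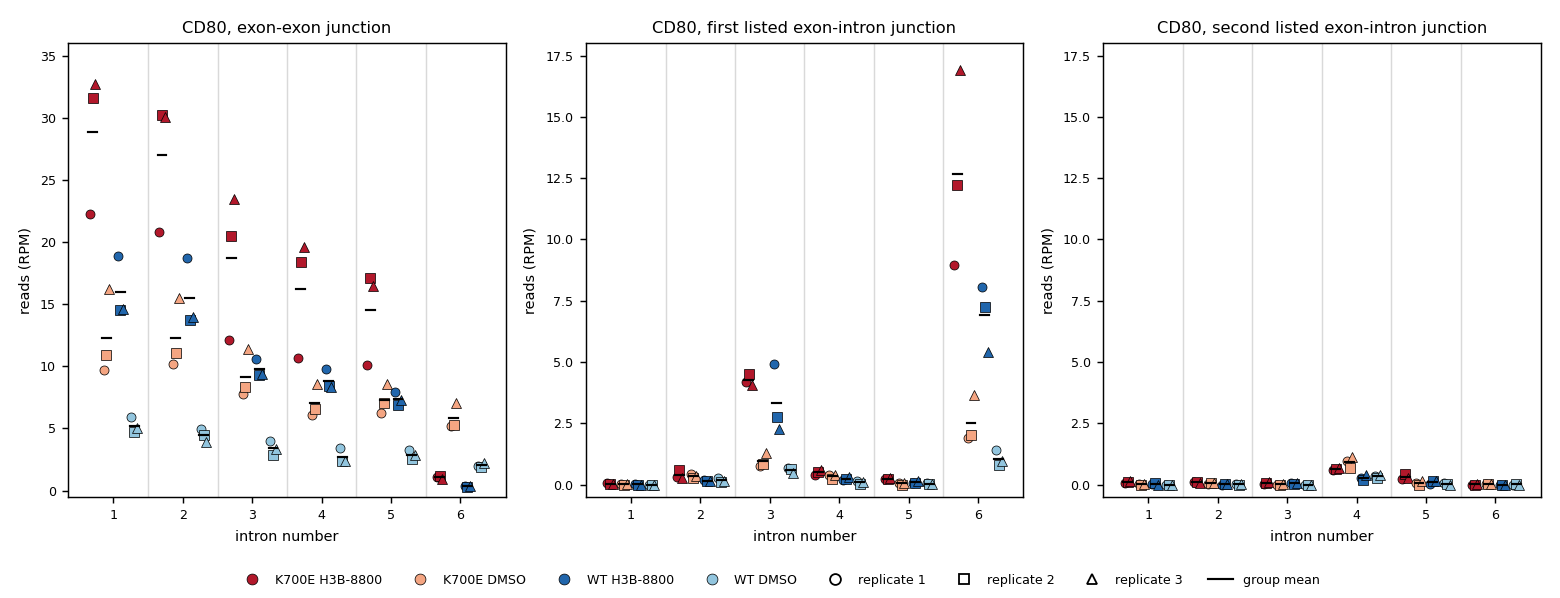
Reads at each CD80 intron in RPM: across the exon-exon junction (left), the first-listed exon-intron junction (middle) and the second-listed one (right), with 1 symbol per sample and a bar at the mean of 3 samples. Spliced reads of introns 1 to 5 are higher in H3B-8800 and those of intron 6 are lower, and the first-listed junction of intron 6 reaches 16.9 RPM while the second stays near 0.

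CD80 exon 5, the membrane-spanning exon shown above, was included in 90.1%, 86.2% and 86.3% of transcripts in K700E samples given H3B-8800, against 100%, 99.3% and 99.8% in K700E samples given DMSO. It was included in 79.7%, 83.3% and 82.6% in WT samples given H3B-8800, against 96.7%, 98.6% and 99.4% in WT samples given DMSO. The differences were -12.1 points in K700E cells (adjusted p = 2.11e-05) and -16.4 points in WT cells (adjusted p = 7.07e-04). An exon outside the annotation (chr3:119532923-119533008, 86 nt) in the intron before exon 5 was used in a mean of 0.247% of transcripts in K700E cells given H3B-8800, against 5.90% in DMSO, and 0.33% in WT cells given H3B-8800, against 5.93% in DMSO. The difference was -5.66 points in K700E cells (adjusted p = 6.9e-07) and -5.60 points in WT cells (adjusted p = 1.29e-06), under the size threshold of a call. Every other annotated CD80 exon in the table had group means of at least 99.7%.

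CD86, the second ligand of CD28 and CTLA4, varied more between the K700E clones than between treatments. CD86 had 78.0, 19.9 and 8.88 RPM in K700E samples given H3B-8800 and 71.0, 26.2 and 10.2 RPM in K700E samples given DMSO. It had 5.18, 7.82 and 5.96 RPM in WT samples given H3B-8800 and 7.04, 8.30 and 7.85 RPM in WT samples given DMSO. Every K700E sample lay above every WT sample, narrowly so for the third clone. The first K700E clone was high and the third low in both treatments, and H3B-8800 changed CD86 by -0.16 in K700E cells (SE 0.75, adjusted p = 0.883) and by -0.31 in WT cells (SE 0.75, adjusted p = 0.747). With the shared culture as a block, the WT change of -0.31 had an adjusted p of 0.0201, the lowest over its alternatives. CD86 exon 5 (chr3:122109265-122109408, 144 nt), which encodes its membrane-spanning segment, was included in a mean of 86.7% in K700E cells given H3B-8800, against 96.6% in DMSO, and 86.8% in WT cells given H3B-8800, against 97.2% in DMSO. The difference of -10.3 points in WT cells was called (adjusted p = 1.06e-04) and that of -9.85 points in K700E cells was just under the size threshold. Without the third WT sample given H3B-8800 the WT difference was -8.04 points. CD86 exon 2 (50 nt) differed by -11.6 points in WT cells (adjusted p = 0.0192), a call lost without the first WT sample in DMSO (adjusted p = 0.0836), without the second or the third WT sample in H3B-8800 (0.0502 and 0.0554) or with precision weights (0.127). In K700E cells it differed by -4.08 points. CD86 intron 4 rose by 13.6 points in K700E cells (adjusted p = 4.7e-04) and by 16.2 points in WT cells (adjusted p = 0.00116).

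TNFRSF13B, which encodes the BAFF and APRIL receptor TACI, fell in spliced reads and included exons 2 and 4 less in H3B-8800. Junctions that skip these exons were not among the 4 introns counted for the gene. The fall and the skipping are thus not separate results, and how much of the fall is skipping was not tested. TNFRSF13B had 15.8, 15.8 and 24.0 RPM in K700E samples given H3B-8800, against 24.6, 32.2 and 37.4 RPM in K700E samples given DMSO. It had 13.4, 20.9 and 18.1 RPM in WT samples given H3B-8800, against 34.04, 37.6 and 37.4 RPM in WT samples given DMSO. All treated samples lay below their DMSO group, narrowly so in K700E cells. It fell by 0.77 on the log2 scale in K700E cells (SE 0.21, adjusted p = 0.0106) and by 1.08 in WT cells (SE 0.21, adjusted p = 0.00117). With median-of-ratios scaling the K700E change was -0.55 (adjusted p = 0.0528) and lost its call, and the WT change was -0.81 (adjusted p = 0.0079).

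TNFRSF13B exon 2 was skipped more in H3B-8800 than in DMSO, where about 1 of 2 transcripts lacked it. It was included in 25.8%, 32.3% and 22.3% of transcripts in K700E samples given H3B-8800, against 51.7%, 48.7% and 47.6% in K700E samples given DMSO. In WT samples given H3B-8800 the level was 24.8%, 18.1% and 23.3%, against 50.04%, 50.6% and 52.2% in WT samples given DMSO. The differences were -22.6 points in K700E cells (adjusted p = 5.23e-04) and -28.9 points in WT cells (adjusted p = 5.57e-05). Without exon 2 the reading frame is kept, and the shorter TACI form that results is known to lack the first cysteine-rich domain. TNFRSF13B exon 4 (chr17:16940326-16940511, 186 nt), which encodes the membrane-spanning segment, was included in 72.8%, 84.0% and 84.4% in K700E samples given H3B-8800, against 98.8%, 97.6% and 97.1% in K700E samples given DMSO. It was included in 70.4%, 68.5% and 68.6% in WT samples given H3B-8800, against 97.9%, 97.5% and 96.0% in WT samples given DMSO. The differences were -17.5 points in K700E cells (adjusted p = 1e-05) and -28 points in WT cells (adjusted p = 3.1e-06). TNFRSF13B exon 3, between them, had group means of at least 98.1%. An exon that starts with exon 5 but ends within it (chr17:16939656-16939797, 142 nt, listed by GENCODE in 1 transcript) was included in 70.9%, 89.3% and 81.1% in K700E samples given H3B-8800, against 96.8%, 94.9% and 93.4% in K700E samples given DMSO. In WT samples given H3B-8800 the level was 68.6%, 64.3% and 64.9%, against 95.3%, 93.5% and 91.05% in WT samples given DMSO. The groups did not overlap in either genotype, with differences of -14.6 points in K700E cells (adjusted p = 0.00123) and -27.3 points in WT cells (adjusted p = 1.26e-04).

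The TNFRSF13B rows of the table also hold exons downstream of the last annotated exon of the main transcript, on chromosome 17, and 3 of these were called. The exon at chr17:16933724-16933769 (46 nt) was included in 36.9%, 37.0% and 48.6% in K700E samples given H3B-8800, against 84.4%, 88.2% and 83% in K700E samples given DMSO. In WT samples given H3B-8800 the level was 32.3%, 19.9% and 46.4%, against 85.4%, 85.4% and 80.3% in WT samples given DMSO. The differences were -44.3 points in K700E cells (adjusted p = 1.34e-04) and -50.8 points in WT cells (adjusted p = 5.29e-05). The exon at chr17:16933065-16933176 (112 nt) differed by -26.7 points (adjusted p = 2.08e-04) and -32.6 points (adjusted p = 9.98e-05), and the exon at chr17:16938065-16938161 (97 nt) by -37.9 points (adjusted p = 8.14e-04) and -28.6 points (adjusted p = 0.00124). As few as 14 reads stood behind a value of these exons, with Wilson intervals of up to 22.4 points to either side. GENCODE lists the 112 nt exon in 2 transcripts of TNFRSF13B other than the main one, and it lists the 46 nt and 97 nt exons in none. The 46 nt and 112 nt exons both lie inside an exon of the pseudogene TBC1D27P on the same strand, so reads of the 2 genes cannot be told apart there. TNFRSF13B intron 3 rose by 20.9 points in K700E cells (adjusted p = 5.02e-07) and by 19.1 points in WT cells (adjusted p = 7.9e-07), and intron 4 rose by 15.3 points in WT cells (adjusted p = 1.83e-05) and differed by 9.22 points in K700E cells.

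TNFRSF13C, the BAFF receptor, had too few spliced reads to be tested as a gene, with 16 to 104 reads per sample. TNFRSF13C had 0.589, 0.346 and 0.366 RPM in K700E samples given H3B-8800, against 0.772, 0.9797 and 0.542 RPM in K700E samples given DMSO. It had 0.562, 0.661 and 0.502 RPM in WT samples given H3B-8800, against 1.11, 1.34 and 1.92 RPM in WT samples given DMSO. All 3 treated WT samples lay below the WT samples in DMSO, and in K700E cells the groups overlapped. Its 1 tested event, intron 2 (chr22:41925555-41926100), rose by 16.7 points in K700E cells (adjusted p = 7.62e-04) and by 17.8 points in WT cells (adjusted p = 0.00201), from 23 to 117 reads per sample. Among the treated WT samples its level was 9.68%, 24.1% and 34.3%, a spread wider than in any other group.

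TNFRSF17, the plasma cell receptor BCMA, did not change detectably in spliced reads. TNFRSF17 had 58.0, 43.4 and 61.5 RPM in K700E samples given H3B-8800, against 59.2, 45.4 and 44.2 RPM in K700E samples given DMSO. It had 41.5, 36.2 and 52.4 RPM in WT samples given H3B-8800, against 45.3, 39.3 and 55.2 RPM in WT samples given DMSO. The log2 changes were 0.13 in K700E cells (SE 0.19, adjusted p = 0.597) and -0.11 in WT cells (SE 0.19, adjusted p = 0.651), and with median-of-ratios scaling they were 0.34 and 0.16, neither called. TNFRSF17 exon 2 (chr16:11966195-11966341, 147 nt), which encodes the membrane-spanning segment, was included in 90.8%, 88.8% and 90.7% in K700E samples given H3B-8800, against 97.8%, 97.0% and 97.2% in K700E samples given DMSO. It was included in 86.0%, 87.2% and 87.8% in WT samples given H3B-8800, against 97.8%, 98.0% and 97.1% in WT samples given DMSO. The groups did not overlap, and the WT difference of -10.7 points was called (adjusted p = 5.08e-07) while the -7.24 points in K700E cells were too few for a call.

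The exons were grouped by the part of the protein after these values were seen. The membrane-spanning exon was skipped more with H3B-8800 in CD80, CD86, TNFRSF13B and TNFRSF17, without overlap of the groups in either genotype. In K700E cells the CD86 and TNFRSF17 differences were under the size threshold. The membrane-spanning exon was at 100% in all 4 groups in CD40 and CD27, and CD70 and TNFRSF13C were not grouped. In WT cells, 16 of the 19 tested exons of any part were called lower. Of the 16 exons called lower in WT cells, 7 were annotated exons with a length that is a multiple of 3, and 6 were annotated exons with another length. The other 3 had coordinates with no match in the annotation. They were CD40 exon 5 as given with its inner start, and the 46 nt and 97 nt exons of the TNFRSF13B rows. Lengths were not counted over all tested exons, so these counts carry no comparison.

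Between genotypes, no splicing event of the 8 genes was called in either treatment. In DMSO, 0 of the 63 events were called by limma between K700E and WT cells, with 9 at an unadjusted p under 0.05, and 0.358% of all tested events were called. In H3B-8800, 0 of the 63 were called, with 7 at an unadjusted p under 0.05 and 0.502% of all tested events called. Spliced reads did differ. In DMSO, K700E cells had more CD80 and CD70 than WT cells, by 1.37 (SE 0.20, adjusted p = 0.00479) and 0.81 (SE 0.14, adjusted p = 0.0115) on the log2 scale, and these were 2 of 7 tested genes, with 4.86% of all genes called. The CD70 call was lost without the first or the second WT sample in DMSO (adjusted p = 0.0542 and 0.0651). CD40 differed by 0.51 (SE 0.20, adjusted p = 0.16), CD27 by -0.41 (SE 0.12, adjusted p = 0.0826) and CD86 by 1.79 (SE 0.75, adjusted p = 0.19), none called, although CD27 was called with median-of-ratios scaling at -0.47 (adjusted p = 0.0252).

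In H3B-8800, 4 of the 7 tested genes were called between K700E and WT cells, with 14.2% of all genes called. CD40 was higher in K700E cells by 1.27 (SE 0.20, adjusted p = 0.00396), CD70 by 1.17 (SE 0.14, adjusted p = 0.00137) and CD80 by 0.86 (SE 0.20, adjusted p = 0.0185), and CD27 differed by -0.42 (SE 0.12, adjusted p = 0.0448). The CD80 call was lost without the second or the third WT sample or the third K700E sample in H3B-8800 (adjusted p = 0.0682, 0.0636 and 0.0558), with median-of-ratios scaling (0.0542) and with the 6 treated samples alone (0.0671). The CD27 call was lost in 13 of 20 alternatives, among them leaving out any 1 of 9 samples, at adjusted p up to 0.146. CD86 differed by 1.94 (SE 0.75, adjusted p = 0.106) and was called only without the third K700E sample in H3B-8800, at 2.66 (adjusted p = 0.0445).

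In the main fit, which ignores the shared cultures, the effect of H3B-8800 did not pass the test of a difference between genotypes for any of the 63 events or 7 tested genes. With the shared culture as a block, CD40 and CD80 passed it for spliced reads. The share of all genes that passed with the block is not given here, so whether CD40 and CD80 stand out was not tested. For events, 0 were called, with 4 at an unadjusted p under 0.05 and 0.00747% of all tested events called. The larger skipping in K700E cells of CD40 exon 6, by -11.9 points, and of CD40 exon 5, by -13.2 points, had adjusted p of 0.902 and 0.776. For spliced reads, 0 of 7 genes were called, with 0.0491% of all genes called. The CD40 effect in K700E minus WT cells was 0.75 (SE 0.28, unadjusted p = 0.0219, adjusted p = 0.875), that is, a smaller fall in K700E cells. Each culture gave its own change: CD40 changed by -1.95, -1.62 and -1.73 in the 3 K700E clones and by -2.36, -2.57 and -2.64 in the 3 WT cultures, and these did not overlap. With the shared culture as a block, the CD40 difference of 0.75 had a limma adjusted p of 0.00425 and the CD80 difference of -0.51 an adjusted p of 0.0269. Deviations from group means of samples of the same culture correlated at 0.66 to 0.93 over genes, a pairing that the main fit does not use. Over the other alternatives the adjusted p of both reached 1.

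Per annotated intron, the levels of the 8 genes in WT cells in DMSO were in the order CD27 (27.7 to 36.6 RPM per intron), TNFRSF17 (19.7 to 27.6), CD70 (9.21 to 11.2), TNFRSF13B (8.51 to 9.39), CD40 (7.52 to 8.92), CD80 (3.13 to 3.92), CD86 (1.17 to 1.38) and TNFRSF13C (0.556 to 0.962). TNFRSF13B overlapped both CD70 and CD40, and the other neighbours did not overlap. In K700E cells given H3B-8800 CD80 was at 12.9 to 20.6 RPM per intron and CD40 at 2.49 to 3.98. In WT cells given H3B-8800 CD80 was at 8.87 to 11.1 and CD40 at 1.21 to 1.74. CD80 thus stood above CD40 in H3B-8800 in both genotypes, the reverse of their order in WT cells in DMSO. In K700E cells in DMSO, CD40 (9.64 to 13.2) and CD80 (7.54 to 11.2) overlapped.

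Other genes of the pathway were taken from lists. Of 26 adaptors and relay genes between these receptors and NF-kappaB, all 26 were tested, and in H3B-8800 9 rose and 7 fell in K700E cells and 11 rose and 7 fell in WT cells. Of all genes, 16.2% rose and 35.8% fell in K700E cells, and 18.5% rose and 40.8% fell in WT cells, shares that also stand beside the lists that follow. The median log2 change was 0.04 and 0.01, against -0.22 and -0.28 over all genes. JAK3, a kinase that associates with CD40, fell by 1.88 in K700E cells (adjusted p = 2.14e-04) and by 2.34 in WT cells (adjusted p = 3.12e-05). TRAF5, an adaptor of CD40 and CD27, fell by 1.54 (adjusted p = 2.47e-05) and 2.19 (adjusted p = 1.26e-06), and TRAF1 fell by 1.74 (adjusted p = 1.98e-04) and 1.95 (adjusted p = 6.17e-05). TDP2, a DNA repair enzyme that binds TRAF proteins, fell by 1.55 (adjusted p = 1.68e-06) and 1.83 (adjusted p = 3.1e-07). Among the genes that rose, TRAF6, an adaptor of CD40, had the largest rise in WT cells, by 0.99 in K700E cells (adjusted p = 4.28e-05) and by 1.17 in WT cells (adjusted p = 8.22e-06). Between genotypes in DMSO, where 4.86% of all genes were called, 2 of the 26 were higher in K700E cells and none was lower: TNFAIP3, an inhibitor of NF-kappaB, by 1.01 (adjusted p = 0.00918) and TANK by 0.33 (adjusted p = 0.0427).

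Of 30 other costimulation ligands and receptors, 18 were tested. In H3B-8800 1 rose and 3 fell in K700E cells, and 3 rose and 5 fell in WT cells, with medians of -0.05 and -0.17. In either direction that is 4 of 18 and 8 of 18, where 52% of all genes were called in K700E cells and 59.3% in WT cells. LTA, the cytokine lymphotoxin alpha, fell by 1.75 (adjusted p = 0.00765) in K700E cells and by 2.16 (adjusted p = 0.00182) in WT cells, and TNFRSF18 fell by 2.44 (adjusted p = 0.00604) and 2.04 (adjusted p = 0.0137). CD274, the inhibitory ligand PD-L1, rose by 0.98 (adjusted p = 0.0107) and 1.35 (adjusted p = 0.00135). TNFSF4, the ligand OX40L, was higher in K700E than in WT cells in DMSO by 2.35 (adjusted p = 0.00776). CD40LG, the ligand of CD40, was at 0 spliced reads in all 12 libraries. Of 16 genes known to respond to CD40 or BAFF in B cells, all 16 were tested, and in H3B-8800 3 rose and 1 fell in K700E cells and 4 rose and 1 fell in WT cells, with medians of 0.20 in both genotypes. The gene that fell was TRAF1, with values given among the adaptors above, and its change was larger than the rises named next. The death receptor gene FAS rose by 1.21 (adjusted p = 1.48e-04) in K700E cells and by 1.29 (adjusted p = 6.68e-05) in WT cells, and the adhesion gene ICAM1 rose by 0.85 (adjusted p = 0.0345) and 1.05 (adjusted p = 0.0109). In DMSO, TNFAIP3 and CD83 were higher in K700E than in WT cells and none of the 16 was lower. No gene of the 3 lists was called in the difference of the effect between genotypes by limma.

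The genes whose spliced reads followed each member most closely over the 12 samples were read off by Pearson's r of log2 RPM, as a description over samples that share cultures and treatments. CD40 was followed by ARFGAP3 (r = 0.994), NSFL1C (0.991) and MRPS11 (0.990), and CD80 by UNC13C (0.977), PSMB1 (0.959) and HMGN3 (0.959). CD86 was followed by KCNMB4 (0.976), POLR2G (0.970) and ITGAV (0.967), and CD70 by BAIAP2L1 (0.959), RGS13 (0.946) and NDUFB5 (0.942). TNFRSF13B was followed by POLRMT (0.986), DDX54 (0.978) and METTL1 (0.977), CD27 by TUBGCP3 (0.919) and PDCD7 (0.914), and TNFRSF17 by EPAS1 (0.869), STK35 (0.866) and AK4 (0.847).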

How the data were processed

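The members and gene lists were chosen with earlier results of these data known. Per the file headers, the authors deposited 1 table of splicing levels in percent for each sample, beside a text column with junction reads and corrected read numbers, the layout of a vast-tools table. The submitters' processing notes name cutadapt 2.4 and hg38, and for the aligner and the event tool the sources used here give no name. Columns of 36 single runs of the same samples were not used. In 4598029 deposited values with 10 or more reads, the percent value was compared with inclusion over total reads, and 0 differed by more than 1 point.

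Log2 of inclusion over exclusion reads, each with 0.5 added, went into limma 3.58.1 (R 4.3.3), with a trend on read number, over all 12 samples as 4 groups without a block. Introns with an imbalance p under 0.05 in more than 6 samples and site 1 of each alternative site were left out. An exon-skipping junction added to spliced reads only if the annotation lists it as an intron. Spliced reads, each annotated intron once, were tested as log2 RPM with 0.5 reads added for genes averaging 50 reads or more. P-values were Benjamini-Hochberg adjusted over all events or genes of a contrast. The fits were tested on simulated data. Exons were matched to GENCODE transcripts on GRCh38. Libraries have no molecular identifiers, so intervals cover counting error only.

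Events described in full were the called events with the largest difference with H3B-8800, up to 3 exons and 3 introns per gene, and other annotated exons called. For list genes, up to 4 of the largest called changes were given, and TRAF6 was added after its values were seen. The 3 genes most like each member in spliced reads were named, except 1 that is not reported here. Culture names in the labels pair H3B-8800 and DMSO samples. Deviations from group means of samples of the same culture correlated at 0.66 to 0.93 over genes and 0.01 to 0.07 over events, against -0.65 to 0.27 and -0.05 to 0.01 for other pairs.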

Additional observations from a re-analysis of the deposited data

Results flagged for a closer look

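The effect of H3B-8800 on spliced reads differed between genotypes for CD40 and CD80 when the culture shared by an H3B-8800 and a DMSO sample was fitted as a block. The share of all genes called in that block fit is not given here. The CD40 difference, K700E minus WT, was 0.75 on the log2 scale, a smaller fall in K700E cells, and the CD80 difference was -0.51, a smaller rise in K700E cells. All 3 K700E clones lay above all 3 WT cultures in their CD40 change, and all 3 lay below in their CD80 change, at 0.77, 1.27 and 0.88 in K700E clones against 1.49, 1.5 and 1.45 in WT cultures. The adjusted p was 0.00425 for CD40 and 0.0269 for CD80 in that limma fit, and 0.875 and 1 without the block.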

How the results depend on the processing

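No member changed the sign of a called value under any alternative run. For the events described in full, 850 alternative values kept their side of the threshold and 6 lost a call, in CD86 exons 2 and 5 and CD70 intron 2. With the replicate block, the shared culture or, between genotypes, the replicate number, event calls with H3B-8800 stayed at 22 in K700E and 27 in WT cells and at 0 elsewhere. Of all tested events, 30.6% in K700E and 31.3% in WT cells were called with H3B-8800 in that fit. The block gave 2 genes called in the difference of the effect, and it also called CD86 in WT cells, at 4 genes; it changed no other gene call. Without the size threshold 38 events (60.3%) were called with H3B-8800 in K700E cells and 41 (65.1%) in WT cells, below the 68.5% and 69.5% of all tested events. Between genotypes in H3B-8800, 3 events were called on percentage points, with 2.43% of all tested events, and 2 with precision weights, with 1.75%. The best-read intron alone called 5 genes with H3B-8800 in WT cells, and the samples of the contrast alone called 2 genes between genotypes in H3B-8800. Shares of all genes called under the alternatives are not given here. Leaving out 1 sample gave 21 to 23 events in K700E and 25 to 27 in WT cells with H3B-8800. Of all tested events, 29.8% to 31.4% were then called in K700E and 30.4% to 31.8% in WT cells. It also gave 1 to 2 genes between genotypes in DMSO and 2 to 4 in H3B-8800, and otherwise the counts given. The cause of these shifts was not tested. Depth limits TNFRSF13C and the TNFRSF13B exons beyond its main transcript most.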
